A study of Mus musculus with 4 samples.

Results

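The 10 genes described here are known from the innate-like B cells of the mouse, B-1 cells and marginal zone B cells: Cd1d1, Zbtb32, Bhlhe41, Nid1, Cd36, Myof, Plscr1, S1pr3, Notch2 and Dtx1. They were chosen by symbol, and each had 1 locus among the 23699 entries of the deposited table. RNA came from C57BL/6 mouse splenic B cells that had been held with an antibody to Cd40 for 48 h, with LPS, PMA and ionomycin present in the last 5 h. From each of 2 cultures, 1 library was made of B10+ cells, sorted as Cd1d high, Cd5 positive and Il10 positive, and 1 library of B10- cells, sorted for lacking Cd1d, Cd5 and Il10. All 4 libraries therefore share the strain, the tissue and the stimulation, and differ by sort gate and by culture. The labels give no age or sex and do not say how many animals entered a culture.

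B-1 cells are self-renewing B cells best known from the body cavities and also found in spleen, where many carry Cd5. Marginal zone B cells sit at the border of the splenic white pulp, are high in Cd1d, and depend on the receptor Notch2 for their development. Both respond fast to microbial products, and follicular B cells are the more numerous splenic B cells that they are usually set against. Cd1d and Cd5 were themselves sort markers, so these genes are not independent of the gate.

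Sequence bears on how far some of these values can be read. The coding sequence of Cd1d1, which encodes the molecule that presents lipids to natural killer T cells, was identical to that of its neighbour Cd1d2 at 972 of 1005 aligned bases (96.7%, GENCODE M21 transcripts on GRCm38). The 2 genes lie 6303 bp apart on chromosome 3 in the table, and both coding sequences hold the following run of 242 bases, at coding bases 694 to 935 of Cd1d1. It is shown because reads from it cannot be assigned to one gene.
Cd1d1 and Cd1d2, shared run: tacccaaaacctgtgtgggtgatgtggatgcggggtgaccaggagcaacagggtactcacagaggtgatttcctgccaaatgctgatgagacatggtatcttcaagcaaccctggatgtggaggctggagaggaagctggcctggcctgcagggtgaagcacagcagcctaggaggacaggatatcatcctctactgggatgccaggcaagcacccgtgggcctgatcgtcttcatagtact
The stretch of 90 coding bases where they differ most, bases 375 to 464 in both, is the kind of sequence that tells them apart. It holds 9 differences, in capitals.
Cd1d1: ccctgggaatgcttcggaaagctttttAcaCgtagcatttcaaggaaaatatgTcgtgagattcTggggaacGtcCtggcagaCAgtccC
Cd1d2: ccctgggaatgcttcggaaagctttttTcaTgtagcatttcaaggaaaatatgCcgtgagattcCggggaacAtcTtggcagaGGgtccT
Of the 50-base words in the longest-coding Cd1d1 transcript, 25.8% also occur in a transcript of Cd1d2. For Plscr1 13.2% were shared with the predicted gene Gm5530, for Notch2 3.86% and for Nid1 2.09% were shared with another gene, and the other 6 transcripts shared none. No locus of the 10 overlapped another entry.

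Promoters of 3 genes that were higher in both B10+ libraries than in both B10- libraries are shown for their motifs, from RefSeq (GRCm38.p6), as the 250 bases before the start. RefSeq promoters were matched for 9 of the 10 genes, with 2 starts for Zbtb32. CCAAT on either strand and the E-box CACGTG are in capitals.
Zbtb32, first start, chr7:30598910-30599159, minus strand: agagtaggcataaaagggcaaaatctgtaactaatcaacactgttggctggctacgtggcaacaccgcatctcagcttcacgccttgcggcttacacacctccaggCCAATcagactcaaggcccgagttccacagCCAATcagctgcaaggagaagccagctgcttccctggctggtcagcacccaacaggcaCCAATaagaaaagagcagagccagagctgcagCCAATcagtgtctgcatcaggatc
Bhlhe41, chr6:145865421-145865670, minus strand: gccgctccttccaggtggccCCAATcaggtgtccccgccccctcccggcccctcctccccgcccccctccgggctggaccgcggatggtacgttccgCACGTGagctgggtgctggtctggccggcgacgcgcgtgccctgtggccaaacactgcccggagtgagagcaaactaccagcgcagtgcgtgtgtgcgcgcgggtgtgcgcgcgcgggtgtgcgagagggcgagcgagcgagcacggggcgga
Nid1, chr13:13437352-13437601, plus strand: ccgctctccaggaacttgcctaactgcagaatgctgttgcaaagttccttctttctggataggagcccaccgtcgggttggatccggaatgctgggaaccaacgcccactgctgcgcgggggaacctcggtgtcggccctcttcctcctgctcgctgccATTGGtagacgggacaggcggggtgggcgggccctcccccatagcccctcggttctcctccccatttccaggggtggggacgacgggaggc
The sequence at the first Zbtb32 start holds 4 CCAAT matches, and that at the second start (chr7:30592943-30593192, minus strand) holds 0. The measured Zbtb32 entry (31374700 to 31377961, mm9) is shorter than the distance between the 2 starts, so it cannot span both. The sequence shown, at the first start, may therefore not be the promoter of that entry. Which start the entry uses was not tested. Of all 32851 promoters in that table, read over 300 bases, 1.06% hold 4 or more CCAAT matches and 37.4% hold at least 1. Of the 10 promoters of these genes 6 hold at least 1, among them that of Dtx1, whose subsets overlapped. The promoter of Plscr1, which was higher in both B10+ libraries than in both B10- libraries, holds 0. CACGTG, the word that the Bhlhe41 protein itself binds, occurred in 1 of these 10 promoters, that of Bhlhe41. This is near the share of all promoters, 7.15%, and binding there was not tested. GTGGGAA (the word of the Notch partner Rbpj), TGANTCA (AP-1) and 1 NF-kB word were searched on both strands of the 300 bases. Each was found in 0 of the 10, against 6.38%, 7.81% and 1.63% of all promoters. The NF-kB word does not cover every form of the NF-kB consensus, so its count of 0 does not show that such sites are absent. CCAAT was added after the promoters had been read, and overlaps none of the other words in these windows.

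Values below are given for culture 1 and then culture 2. The 10 genes divided into those that were higher in B10+ cells and those whose subsets overlapped. Both B10+ libraries lay above both B10- libraries for Zbtb32, Bhlhe41, Nid1, Cd36, Myof and Plscr1, that is 6 of 10, beside 11.1% of the 19935 entries above 0 in any library. Among the 9 genes that passed the filter on low values (at least 1 FPKM in at least 2 libraries) this held for 5, beside 6.6% of the 10367 tested entries. FPKM is the number of fragments scaled for transcript length and library size, so its levels can be set side by side between genes, but in sorted bulk cells it does not tell fewer expressing cells from less RNA per cell. Nid1 and Bhlhe41 passed that filter through their B10+ libraries alone and so had to be higher there, and Myof did not pass it. The remaining 4 genes, Cd1d1, S1pr3, Notch2 and Dtx1, overlapped between the subsets. Within cultures, 8 of the 10 were higher in B10+ cells both times and 2 (Notch2 and Dtx1) had opposite signs. Among the tested genes 7 of 9 were higher in both cultures, beside 33.4% of tested entries, and 0 were lower in both, beside 31.8%. Without Nid1 and Bhlhe41, 5 of the other 7 were higher both times and 0 lower. In 6 of the 10 (the 6 genes above without Plscr1, and with Cd1d1) the ratio was at least 2 in both cultures. Among the tested genes this held for 5 of 9, beside 3.4% of tested entries. Nid1 and Bhlhe41 are among these 5.

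Differences were tested with limma on log2(FPKM + 1), a scale that understates the change of genes at low levels. Without the culture in the fit 0 of the 9 tested genes passed at an adjusted p of 0.05, where 0% of all entries passed in either direction, and at an unadjusted p under 0.05 there were 2 (Nid1 and Zbtb32) beside 1.05% of all entries as higher and 0.0868% as lower. The labels tie the libraries of a culture together. Once culture entered as a replicate block, 1 of the 9, Nid1, passed as higher, beside 0.781% of all entries. As lower 0 passed, beside 0.0772%. The filter had fixed the direction of Nid1 and of Bhlhe41. At an unadjusted p under 0.05 in that blocked fit 6 of the 9 were higher, beside 10.5% of all entries. Nid1 and Bhlhe41 are among these 6. The median log2 difference of the 9 was 0.75, against 0.00 over all tested entries. Without Nid1 and Bhlhe41 the median of the other 7 was 0.70. Only 2 cultures stand behind each value, and the block leaves 1 residual degree of freedom, so its errors rest largely on the spread over all genes.

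**Figure D1:**
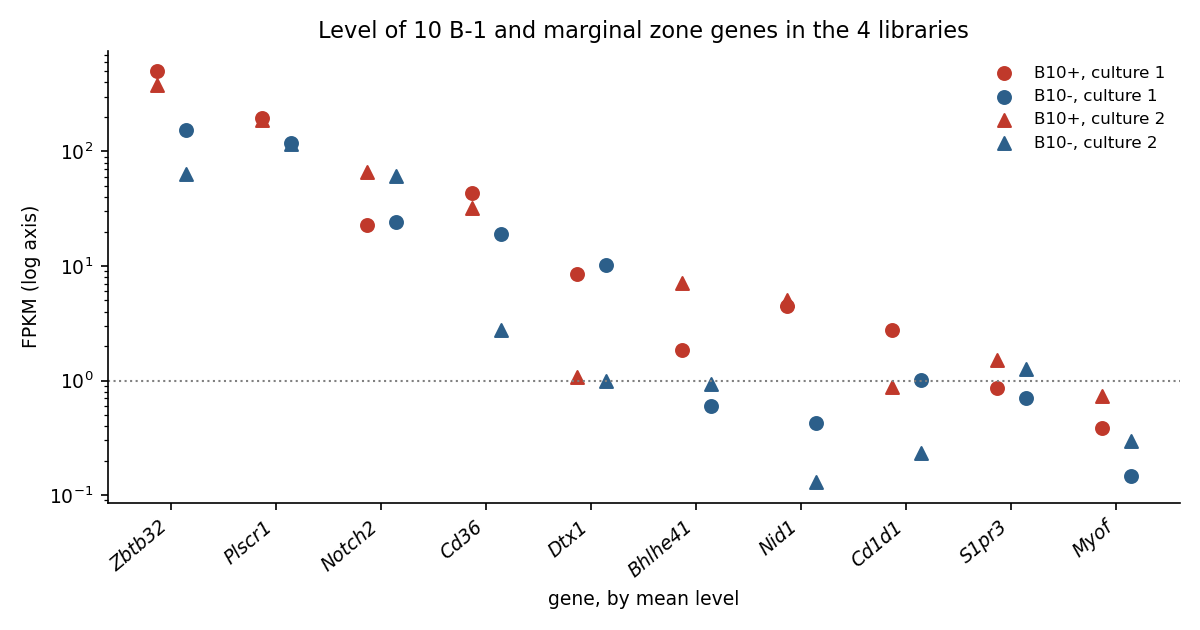
FPKM of the 10 genes on a log axis, 1 point per library, red for B10+ and blue for B10-, circles for culture 1 and triangles for culture 2; the dotted line is 1 FPKM. Zbtb32 and Plscr1 lie above the other genes in all libraries except that Notch2 of culture 2 comes close to Zbtb32 in B10- cells (60.9 against 63.8 FPKM), and Notch2 and Dtx1 separate by culture rather than by subset.

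Among the transcription factors, Zbtb32 was the most abundant of the 10 genes in B10+ cells. Zbtb32 encodes a zinc finger repressor of activated lymphocytes (chromosome 7, 31374700 to 31377961, mm9). It reached 500.7 FPKM in culture 1 and 377.9 FPKM in culture 2 in B10+ cells, and 153.4 and 63.8 FPKM in B10- cells. Both B10+ libraries were high and clear of the B10- range, and in every library the gene stood between the 94.1 and 99.4 percentile of all entries. The ratio was 3.27 in culture 1 and 5.92 in culture 2, and the log2 difference was 2.12 ± 0.60 (SD over 2 cultures). Its blocked limma adjusted p was 0.0567, just outside the threshold, and it was 0.0414 when libraries were also rescaled by the median of ratios.

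Bhlhe41, a basic helix-loop-helix repressor that B-1 cells need for their maintenance (chromosome 6, 145811257 to 145813860), was far less abundant. Its values were 1.85 and 7.13 FPKM for B10+ versus 0.601 and 0.942 FPKM for B10-. The B10+ library of culture 2 stood apart from the other three, which lay at or below 1.85 FPKM. The ratio was 3.08 in culture 1 and 7.57 in culture 2, with log2 difference 1.45 ± 0.87 (SD, 2 cultures; blocked limma adjusted p = 0.196). Without B10+ replicate 2 the log2 difference was 0.69, and without B10+ replicate 1 it was 2.21. Its close relative Bhlhe40, an activation-induced repressor of the same family, had the opposite sign in both cultures, with 50.9 and 34.4 FPKM for B10+ versus 87.5 and 49.9 FPKM for B10-, log2 difference -0.65 ± 0.17 (SD, 2 cultures; blocked limma adjusted p = 0.18). The coding sequences of the pair were 58.1% identical over aligned bases, and no 50-base word of Bhlhe41 occurred in another gene, so sharing of reads between them was not seen at that word length.

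Nid1 showed the largest ratios and was the gene that rose past the threshold with the block. It encodes nidogen-1, a linker protein of basement membranes (chromosome 13, 13529869 to 13604542). Its level was 4.45 and 5.00 FPKM for B10+ versus 0.426 and 0.13 FPKM for B10-. The B10+ libraries agreed closely, and both B10- libraries were below 1 FPKM. Nid1 thus passed the filter through its B10+ libraries alone, which fixed its direction. The ratio was 10.4 in culture 1 and 38.5 in culture 2, and the log2 difference was 2.17 ± 0.34 (SD, 2 cultures; blocked limma adjusted p = 0.0386). The call ended with log2(FPKM + 0.1) in place of log2(FPKM + 1), where the log2 difference was 3.79 (blocked limma adjusted p = 0.0676), and also when low entries were kept (blocked limma adjusted p = 0.0733). Nidogen is also made by stroma and endothelium, and of 15 endothelial and stromal markers 13 stayed below 1 FPKM in all 4 libraries, with Col1a2 and Dcn listed at 0 in each. Their summed level was 11.8 and 26.4 FPKM for B10+ versus 9.86 and 42.3 FPKM for B10-. Of it Pecam1, also in the marginal zone list, held 6.62 and 25.3 versus 5.52 and 41.0 FPKM, and the only other marker above 1 FPKM was Egfl7, at 4.77 and 0.844 versus 4.12 and 0.677 FPKM. Their part in the Nid1 values was not tested.

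Cd36, a scavenger receptor that takes up fatty acids and oxidized lipids and is high on marginal zone B cells, was the membrane gene with the largest spread between cultures (chromosome 5, 17287508 to 17394777). It was at 43.4 and 32.2 FPKM for B10+ versus 19.0 and 2.78 FPKM for B10-. The B10+ libraries were alike, and the B10- library of culture 2 was low. The ratio was therefore 2.28 in culture 1 and 11.6 in culture 2, with log2 difference 2.14 ± 1.40 (SD, 2 cultures; blocked limma adjusted p = 0.198). In fits with no block and 1 library left out, the log2 difference was 3.34 without B10- replicate 1 (limma adjusted p = 0.0385) and 0.94 without B10- replicate 2, 1.93 without B10+ replicate 1 and 2.35 without B10+ replicate 2 (limma adjusted p = 1.0 for these). With a B10- library left out, the lone B10- library is assumed to vary like the B10+ libraries. Macrophages carry Cd36 as well. Of the 18 macrophage and monocyte markers found, 15 stayed below 1 FPKM in all libraries, and Lyz1 was listed at 0 in each. The summed level was 24.0 and 9.37 FPKM for B10+ versus 13.5 and 5.63 FPKM for B10-, the same direction as Cd36. Of the 3 tested markers, Emr1 (F4/80) and Ly6c2 were higher in B10+ cells in both cultures. Emr1, at 2.58 and 2.55 versus 0.837 and 0.22 FPKM, passed the filter through its B10+ libraries alone, which fixed its direction. Ly6c2 held most of the B10+ sum of culture 1. Cd68, at 5.72 and 4.38 versus 7.55 and 3.46 FPKM, was lower in B10+ cells of culture 1. Some markers below 1 FPKM, such as Csf1r and Lyz2, were lower in B10+ cells of culture 2. The part of these markers in the Cd36 values was not tested.

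Plscr1, an interferon-inducible phospholipid scramblase, differed by nearly the same amount in both cultures (chromosome 9, 92145032 to 92167399). It was at 195.9 and 187.6 FPKM for B10+ versus 118.7 and 116.6 FPKM for B10-, with replicates that nearly coincide. The ratio was 1.65 in culture 1 and 1.61 in culture 2, and the log2 difference was 0.70 ± 0.03 (SD, 2 cultures; blocked limma adjusted p = 0.124). Its adjacent paralog Plscr2, 3040 bp away and 83.0% identical over aligned coding bases, was at 0.209 and 0.853 FPKM for B10+ versus 0.0874 and 1.08 FPKM for B10-.

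Myof, which encodes myoferlin, a ferlin of membrane repair and fusion (chromosome 19, 37973526 to 38118067), was the lowest of the 10 in B10+ cells. It was at 0.385 and 0.731 FPKM for B10+ versus 0.148 and 0.294 FPKM for B10-, all below 1 FPKM. The B10+ library was the higher of the pair in each culture, by a ratio of 2.61 and 2.49. With no filter on low values its log2 difference was 0.35 (blocked limma adjusted p = 0.254).

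Cd1d1, the gene behind a sort marker (chromosome 3, 86799758 to 86803262), was at 2.76 and 0.879 FPKM for B10+ versus 1.01 and 0.235 FPKM for B10-. The B10+ library was the higher within each culture, by 2.72 and 3.73 fold, but the B10+ library of culture 2 lay below the B10- library of culture 1, so the groups overlapped. The log2 difference was 0.75 ± 0.21 (SD, 2 cultures; blocked limma adjusted p = 0.174). With 1 library left out it ran from 0.25 (without B10+ replicate 1) and 0.40 (without B10- replicate 2) to 1.25 (without B10+ replicate 2). Cd1d2, which shares the long run shown above, was at 0.363 and 0.197 FPKM for B10+ versus 0.035 and 0.0261 FPKM for B10-, with the same direction in both cultures. Summed over both genes the signal was 3.12 and 1.08 FPKM for B10+ versus 1.05 and 0.262 FPKM for B10-, and the log2 difference was 0.86 (blocked limma adjusted p = 0.132).

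S1pr3, the sphingosine 1-phosphate receptor that is characteristic of marginal zone B cells and takes part in their positioning (chromosome 13, 51503987 to 51518166), was near 1 FPKM throughout. It was at 0.869 and 1.51 FPKM for B10+ versus 0.702 and 1.26 FPKM for B10-. Within each culture the subsets were close, with a ratio of 1.24 and 1.20. The log2 difference was 0.15 ± 0.01 (SD over 2 cultures), its unadjusted limma 95% interval with the block ran from -0.24 to 0.53, and the sign turned after quantile normalization (-0.017). Its relative S1pr1, through which lymphocytes leave lymphoid organs, rose with the block, from 5.53 and 2.16 FPKM in B10- to 23.6 and 9.41 FPKM in B10+ cells (blocked limma adjusted p = 0.0428). It did not pass with the block under log2(FPKM + 0.1) or when low entries were kept. The difference between the S1pr1 and S1pr3 effects was not tested.

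**Figure D2:**
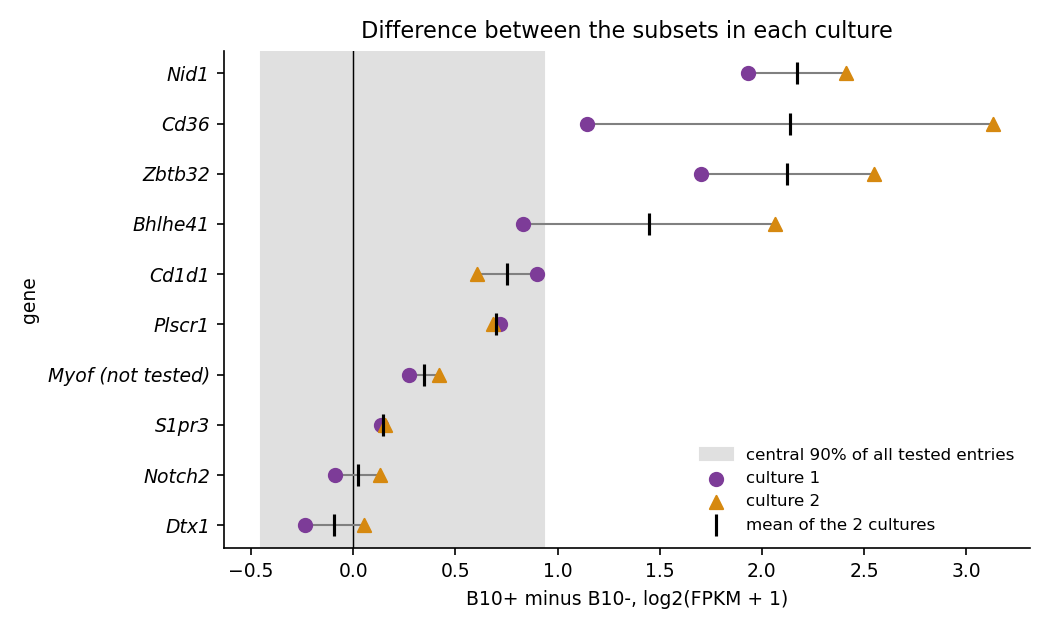
B10+ minus B10- difference in log2(FPKM + 1) for each gene, with a circle for culture 1, a triangle for culture 2 and a bar for their mean; grey marks the central 90% of all tested entries, from -0.45 to 0.93. Nid1, Cd36, Zbtb32 and Bhlhe41 have means to the right of the grey band, and Notch2 and Dtx1 lie on both sides of 0.

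The Notch genes overlapped between the subsets. Notch2, the receptor that marginal zone B cells require (chromosome 3, 97817461 to 97954290), was at 22.8 and 66.8 FPKM for B10+ versus 24.3 and 60.9 FPKM for B10-. The ratio was 0.938 in culture 1 and 1.10 in culture 2, and its log2 difference was 0.02 ± 0.16 (SD, 2 cultures), the unadjusted limma 95% interval with the block being -0.36 to 0.40. Dtx1, a ubiquitin ligase and a known target of Notch signalling in B cells (chromosome 5, 121130273 to 121161678), was at 8.47 and 1.07 FPKM for B10+ versus 10.2 and 0.996 FPKM for B10-. Its ratio was 0.833 and 1.07, its log2 difference was -0.09 ± 0.21 (SD over 2 cultures), and the interval ran from -0.57 to 0.39. The blocked adjusted p of limma was 0.956 for Notch2 and 0.825 for Dtx1, which does not show that the subsets are alike. Leaving out single libraries turned both signs, with log2 differences from -0.73 to 0.78 for Notch2 and from -1.33 to 1.15 for Dtx1 in fits without the block.

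The same pair did separate the cultures, in opposite directions. Notch2 was 2.93 times as high in culture 2 as in culture 1 in B10+ cells and 2.50 times in B10- cells, while Dtx1 was at 0.126 and 0.098 of its culture 1 level. In the fit with the block, a comparison added after the data were seen, the culture 2 minus culture 1 difference was 1.40 for Notch2 and -2.34 for Dtx1 on the log2 scale (limma adjusted p = 0.00364 and 0.00287). The difference between cultures passed for 4 of the 9 tested genes, also Zbtb32 (-0.83, limma adjusted p = 0.0393) and Cd1d1 (-0.85, limma adjusted p = 0.0122), beside 61.7% of all tested entries, so a culture difference is no feature of these genes. For size, 4.74% of tested entries had a larger absolute culture difference than Dtx1, and 19.6% a larger one than Notch2. What differed between the cultures is not given in the sources used here.

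**Figure D3:**
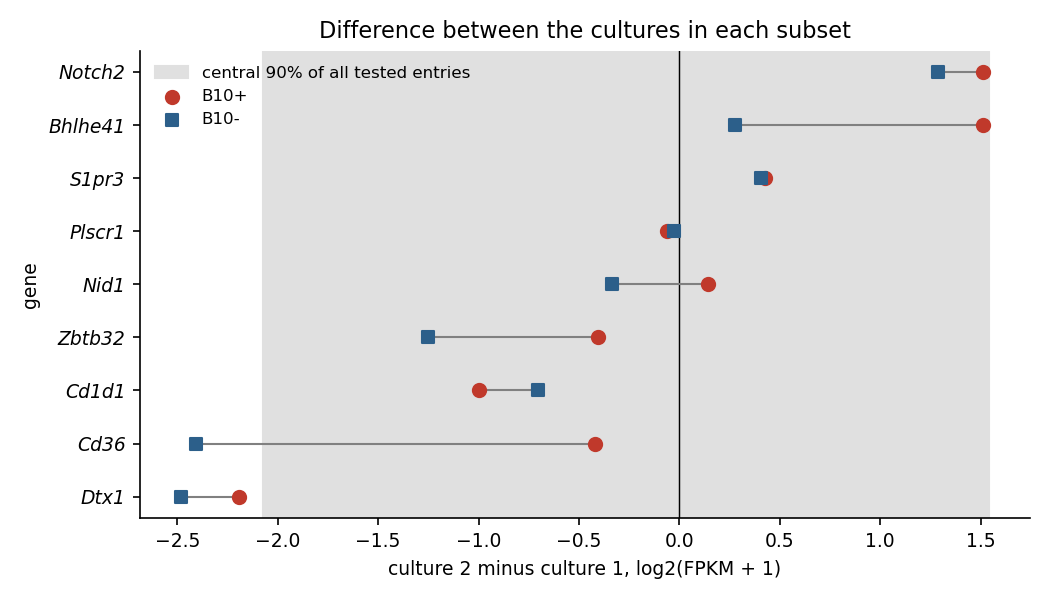
Culture 2 minus culture 1 in log2(FPKM + 1) for the 9 tested genes, a red circle for B10+ and a blue square for B10- cells; grey marks the central 90% of all tested entries, from -2.07 to 1.54. Dtx1 lies below the band and Notch2 near its upper edge in both subsets. Cd36 lies below the band in B10- cells alone (-2.41), and Bhlhe41 near the upper edge in B10+ cells alone (1.51). Plscr1 and Nid1 lie near 0.

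Other genes of the Notch pathway were read by role from a list of 44, of which 31 were tested. Of these, both cultures gave a higher value for 12 and a lower one for 8, the median log2 difference was 0.05, and 0 passed over all genes with or without the block. Among receptors, Notch1 was at 11.4 and 32.9 FPKM for B10+ versus 10.8 and 25.3 FPKM for B10-, and Notch3 and Notch4 stayed below 1 FPKM. Among ligands, Dll1, the one linked to marginal zone B cell development, was at 0.907 and 4.02 versus 1.15 and 5.35 FPKM, and Dll3, Dll4, Jag1 and Jag2 stayed below 1 FPKM. Rbpj, the DNA-binding partner of cleaved Notch, was at 9.66 and 27.9 versus 7.38 and 12.9 FPKM. The largest difference of the list was that of Lfng, a glycosyltransferase that modifies Notch receptors, at 2.98 and 3.72 FPKM for B10+ versus 15.1 and 8.98 FPKM for B10-, log2 difference -1.55 ± 0.66 (SD, 2 cultures; blocked limma adjusted p = 0.126). After quantile normalization with the block Lfng was the 1 member of the list that passed, as lower (log2 difference -1.66, blocked limma adjusted p = 0.0427). The Dtx family members Dtx3 and Dtx4 had log2 differences of 0.72 and -0.56, and Rbpj one of 0.70 (blocked limma adjusted p = 0.25, 0.309 and 0.293).

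Of the targets of Notch, Hes1, a repressor induced by Notch, was at 7.84 and 2.03 FPKM for B10+ versus 7.49 and 2.67 FPKM for B10-, and Nrarp, a feedback inhibitor, at 1.09 and 0.245 versus 1.89 and 0.434 FPKM. Hes5 was at 1.36 and 0.19 versus 0.749 and 0.305 FPKM and was not tested, and Hey1, Hey2 and Heyl stayed below 1 FPKM. Hes1 and Nrarp were lower in culture 2 in both subsets, as Dtx1 was, while Notch1, Dll1 and Rbpj were higher there, as Notch2 was. On the log2 scale the culture differences were -1.38 for Hes1, -0.88 for Nrarp, 1.48 for Dll1 and 1.09 for Rbpj. These genes were picked for their roles, and no test was made of them as a set.

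The wider lists were drawn up with earlier results of these data known, and no statement of independence is made for them. Of 15 tested other B-1 genes, both cultures gave a higher value for 14 and a lower one for 1, and the median log2 difference was 1.73. Of the 15, 4 (Cd5, Spn, Cd300lf and Tbc1d9) passed the filter through their B10+ libraries alone and so had to be higher there, and Cd5 was a sort marker. Of the other 11, 10 were higher and 1 lower both times, with the same median of 1.73. With the block 5 of the 15 passed as higher, beside 0.781% of all entries: Ctla4, Rgs10, Ptpn22, S100a6 and Tbc1d9, the last of which the filter had fixed in direction. Ptpn22, a phosphatase that restrains antigen receptor signalling, was the most even of them, at 28.2 and 75.7 FPKM for B10+ versus 6.61 and 18.1 FPKM for B10- (log2 difference 1.97 ± 0.05, SD, 2 cultures; blocked limma adjusted p = 0.0287). Ctla4, an inhibitory receptor that T cells also carry, was at 244.1 and 137.8 versus 26.7 and 29.9 FPKM, and Rgs10, a regulator of G protein signalling, at 29.2 and 7.44 versus 4.18 and 0.671 FPKM (blocked limma adjusted p = 0.0463 and 0.0287). Tbc1d9 was at 2.82 and 1.97 FPKM versus 0.2 and 0.11 FPKM, and S100a6, a calcium-binding protein, at 38.7 and 4.38 versus 6.90 and 0.454 FPKM (blocked limma adjusted p = 0.0463 and 0.042). When low entries were kept, 1 of the list (Ptpn22) passed with the block, and with log2(FPKM + 0.1) Ctla4 did not.

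Large but uneven differences in that list were those of Cd9, Cd300lf and Spn. Cd9, a tetraspanin, was at 18.4 and 65.1 versus 4.003 and 2.58 FPKM (blocked limma adjusted p = 0.128). Spn, which encodes the B-1 marker Cd43, was at 28.4 and 1.82 FPKM for B10+ versus 0.997 and 0.143 FPKM for B10- (blocked limma adjusted p = 0.21). Cd300lf, an inhibitory receptor, was at 3.37 and 11.7 versus 0.245 and 0.2 FPKM (blocked limma adjusted p = 0.1). The 1 gene with the opposite sign was Ccr6, a chemokine receptor, at 2.93 and 2.29 FPKM for B10+ versus 7.49 and 13.8 FPKM for B10- (log2 difference -1.64 ± 0.74, SD, 2 cultures; blocked limma adjusted p = 0.13).

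Of 12 tested other marginal zone genes, both cultures gave a higher value for 7 and a lower one for 2, the median log2 difference was 0.61, and 0 passed with or without the block. Gpr55 passed the filter through its B10+ libraries alone, and the other 11 had a median of 0.24, with 6 higher and 2 lower both times. Fcrl5 and Cd9 stand in both lists. Gpr55, a lysolipid receptor, was at 8.55 and 2.71 FPKM for B10+ versus 0.349 and 0.0237 FPKM for B10-, log2 difference 2.34 ± 0.68 (SD, 2 cultures; blocked limma adjusted p = 0.0588). Fcrl5, an Fc receptor-like protein of innate-like B cells, was at 89.0 and 72.9 versus 32.8 and 16.8 FPKM (blocked limma adjusted p = 0.0581), and Tm6sf1 at 14.9 and 3.89 versus 5.86 and 0.849 FPKM (blocked limma adjusted p = 0.0717). Cr2, the complement receptor Cd21 that is high on marginal zone B cells, leaned the other way, at 10.2 and 20.9 FPKM for B10+ versus 11.6 and 32.1 FPKM for B10- (log2 difference -0.38, blocked limma adjusted p = 0.402).

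Follicular B cell genes served as the counterpart. Of 14 tested, both cultures gave a higher value for 3 and a lower one for 7, the median log2 difference was -0.34, and with the block S1pr1 rose, beside 0.781% of all entries, and Satb1, a chromatin organizer, fell, beside 0.0772%, at 10.9 and 92.6 versus 44.0 and 287.0 FPKM (blocked limma adjusted p = 0.0371). Fcer2a, which encodes Cd23, a protein that marginal zone and B-1 cells carry at low level, was at 5.28 and 3.25 FPKM for B10+ versus 28.8 and 7.55 FPKM for B10- (log2 difference -1.63 ± 0.88, SD, 2 cultures; blocked limma adjusted p = 0.167). Gpr183, a receptor that guides B cells to follicle borders, was at 40.8 and 73.7 versus 75.8 and 204.6 FPKM (blocked limma adjusted p = 0.102). Of 11 genes that mark B cells of any subset, all tested, 3 were higher and 4 lower both times, with a median log2 difference of -0.21. The largest of the lower ones were Blnk, an adaptor of the B cell receptor, Cd22, an inhibitory receptor, and Ebf1, a transcription factor of the lineage, with log2 differences of -0.73, -0.69 and -0.51. Ms4a1, which encodes Cd20, was at 195.4 and 66.7 FPKM for B10+ versus 253.0 and 65.5 FPKM for B10-. Cd79a, a signalling chain of the B cell receptor, was at 25.9 and 31.4 versus 20.8 and 8.04 FPKM. Pax5, the transcription factor of B cell commitment, was at 20.9 and 41.6 versus 24.1 and 38.7 FPKM. Plasma cell genes leaned to B10+ cells, with 8 of 9 tested higher in both cultures, a median log2 difference of 0.86 and 1 that rose with the block (beside 0.781% of all entries), Sec11c, at 205.3 and 30.6 versus 42.9 and 3.61 FPKM (blocked limma adjusted p = 0.0287). Their part in the values of the B-1 genes was not tested. The 14 T and NK cell markers in the table summed to 32.7 and 24.2 FPKM for B10+ versus 15.8 and 6.65 FPKM for B10-, with 9 below 1 FPKM in all libraries and Ncr1 listed at 0. Most of each sum was held by Cd2, at 20.3 and 10.3 versus 5.24 and 2.93 FPKM, and Lck, at 7.93 and 6.57 versus 10.1 and 3.42 FPKM. Lck was thus lower in B10+ cells of culture 1, and Cd8a, below 1 FPKM, was lower there in culture 2. Lck, Cd8a, Klrb1c and Ncr1 overlapped between the subsets. Both B10+ libraries lay above both B10- libraries for Cd3e, Cd3d, Cd3g, Cd4, Cd8b1, Cd2, Thy1, Zap70, Cd28 and Nkg7. Of all entries above 0 in any library this held for 11.1%. Cd3g was at 1.14 and 0.245 FPKM and Cd8b1 at 0.863 and 3.23 FPKM in B10+ libraries. Both were listed at 0 in both B10- libraries, as were Cd3e, Cd4 and Nkg7. Zap70 was at 0.912 and 1.67 FPKM for B10+ versus 0 and 0.014 FPKM for B10-. The part of these markers in the values of Ctla4 and of the 10 genes was not tested.

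**Figure D4:**
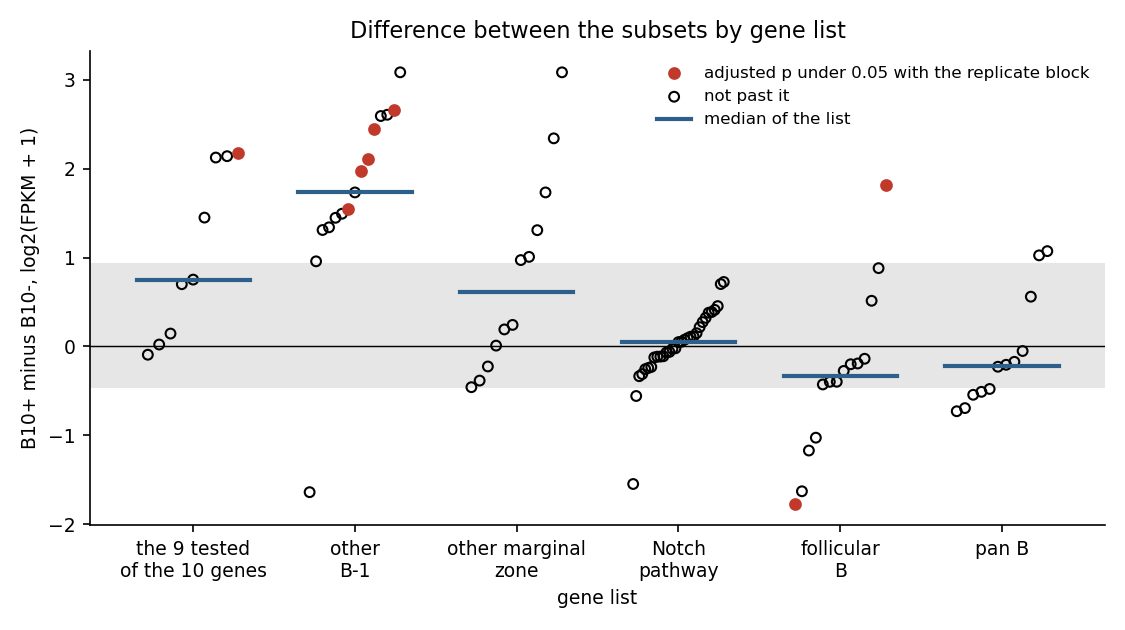
B10+ minus B10- difference in log2(FPKM + 1), 1 point per tested gene, for the 9 tested genes and for 5 wider lists; filled points passed an adjusted p of 0.05 with the replicate block, blue bars are list medians, and grey marks the central 90% of all tested entries. The other B-1 genes have a median of 1.73, above the band, the Notch pathway 0.05 and the follicular genes -0.34.

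The levels of the 10 genes ran from Zbtb32 and Plscr1 at the top to Myof and S1pr3 at the bottom. In B10+ cells the mean order was Zbtb32 (439.3 ± 86.8 FPKM, SD, n = 2), Plscr1 (191.7 ± 5.85), Notch2 (44.8 ± 31.1), Cd36 (37.8 ± 7.92), Dtx1 (4.77 ± 5.23), Nid1 (4.72 ± 0.395), Bhlhe41 (4.49 ± 3.74), Cd1d1 (1.82 ± 1.33), S1pr3 (1.19 ± 0.457) and Myof (0.558 ± 0.245). Notch2 and Cd36, and likewise Dtx1, Nid1 and Bhlhe41, differed by less than the spread of their replicates. In B10- cells Plscr1 (117.6 ± 1.48 FPKM, SD, n = 2) and Zbtb32 (108.6 ± 63.3) did not differ beyond their spread, and Nid1 (0.278 ± 0.209) and Myof (0.221 ± 0.104) were lowest.

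The entries with the most similar profile over the 4 libraries were found by Euclidean distance between mean-centred log2 values, among 9264 entries with a mean of at least 2 FPKM, for the 3 genes with the largest differences. Nid1 was closest to Apoe (distance 0.0866), which encodes a lipid carrier and was at 47.8 and 50.9 FPKM for B10+ versus 10.7 and 8.79 FPKM for B10-, followed by Lgals3 (0.204) and E030011O05Rik (0.367). Zbtb32 was closest to Lysmd2 (0.18), Rxra, a nuclear receptor (0.318), and Tnfsf9, the ligand of 4-1BB (0.33). Cd36 was closest to the cytokine gene Il6 (0.189), which was at 425.7 and 309.0 FPKM for B10+ versus 185.6 and 29.7 FPKM for B10-, and to the mitosis genes Plk1 (0.416) and Cenpe (0.502). The distances use log2(FPKM + 1), which understates the change of genes at low levels. Nid1, at 0.426 and 0.13 FPKM in B10- cells, can thus lie near genes with smaller ratios. With 4 libraries many profiles lie close to one another, and nearness is given here as a description.

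The sort itself was visible in Il10, at 1683 and 2329 FPKM for B10+ versus 9.26 and 9.62 FPKM for B10-, and in Cd5, at 2.38 and 2.63 versus 0.278 and 0.564 FPKM. Entries listed at 0 made up 19.4% of the B10+ library of culture 1 and between 34.5% and 37.3% of the others. The depth of the libraries is unknown, so no detection limit is given for the low genes.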

How the data were processed

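Total RNA of 4 libraries was depleted of ribosomal RNA with Ribo-Zero, per the labels' protocols. The authors deposited 1 table of FPKM values, with a locus on mm9 per entry. TopHat 1.3.2, Cufflinks 2.1.1, bcl2fastq 1.8.4 and DESeq are named in the submitters' processing notes with no role; for annotation, strand and multi-mapping: not given in the sources used here. No counts came with these values, so depth is unknown. Loci count from 0 (end minus start equalled the RefSeq length for 8771 of 20652 symbols, against 534 with 1 added), so starts are printed with 1 added.

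Entries with at least 1 FPKM in at least 2 libraries (10367) were tested as log2(FPKM + 1) with limma-trend (limma 3.58.1, R 4.3.3), two-sided, Benjamini-Hochberg adjusted over all of them, threshold 0.05; the code was tested on simulated data. The main fit has no culture term. The labels pair libraries by culture: deviations from group means correlated at 0.865 within cultures, and log2 values at 0.965 and 0.947 within cultures against 0.840 and 0.836 within subsets. The fit that adds culture as replicate block is therefore given beside each result. Replicates are separate cultures per the labels.

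The genes, lists and motifs were chosen with earlier results of these data known. Named from the wider lists were genes past the threshold in either fit and the 4 largest differences of equal sign in both cultures; Notch genes were also named by role, and Cr2, Ccr6, Plscr2, Sec11c and the marker genes after their values were seen. Coding identity came from global alignment in Biopython 1.88 of GENCODE M21 sequences. An item of the sort and of the B cell marker list is not reported here.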

Additional observations from a re-analysis of the deposited data

How the results depend on the processing

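Limits: 2 cultures, unknown depth and relative units bound every value, and the fit without the block called none of the 9 tested genes at any planned setting with all 4 libraries. The replicate block changed the count of genes called higher from 0 to 1 (Nid1), 1 after quantile normalization with the block and 2 with the block and median-of-ratios scaling (Nid1 and Zbtb32), but 0 with the block and log2(FPKM + 0.1) and 0 with the block and no filter; leaving out single libraries gave 0 to 1 (Cd36 without B10- replicate 1) and for genes called lower 0 to 0. Over all entries, 0 were called higher without the block and 81 with it, 53 with log2(FPKM + 0.1), 120 with median-of-ratios scaling, 40 with no filter and 167 with quantile normalization, each with the block, and 1 to 130 with a library left out (130 without B10- replicate 1). Entries called lower were 0, or 1 with log2(FPKM + 0.1) and 1 with median-of-ratios scaling, without the block; with it they were 8, 7, 14, 5 and 23 in that order, and 3 to 14 with a library left out. In that order with the block, other B-1 genes called were 5, 4, 6, 1 and 9 (0 to 2 with a library left out), marginal zone genes 0, 1, 2, 0 and 5 (0 to 1), Notch genes 1 after quantile normalization and otherwise 0 (0 to 0), follicular genes 2, 1, 2, 1 and 2 (0 to 0), and paralogs 1, 0, 1, 0 and 1 (0 to 0). The sign of the difference turned for S1pr3 after quantile normalization (-0.017 with and without the block) and ranged from -0.069 to 0.36 on leaving out single libraries, for Notch2 with median-of-ratios scaling (-0.038 with and without the block) where single libraries left out gave -0.73 to 0.78, and for Dtx1, where they gave -1.33 to 1.15. A left-out library lets the difference between cultures into the fit by construction. The causes of the other changes were not tested. Each of the 10 genes has 1 locus, so summing loci changed nothing.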
